A study of Mus musculus with 16 samples.

Results

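Genes of glycolysis and of the cellular response to low oxygen were followed in the developing mouse epididymis, the coiled duct that carries and matures sperm and that forms from the Wolffian duct. The group was defined by 32 gene symbols, and each gene was represented by the probe set that was brightest on average over the 15 epididymis arrays. Brightness over all stages was therefore the measured value that chose the probe sets. The symbols themselves were put together with earlier results of these same arrays known, so the counts and p-values below describe these arrays and are not independent support for the grouping. The name of the group refers to what the genes are known for, and neither oxygen nor any protein was measured. Of the 32 genes, 29 had a probe set annotated to that gene alone, out of 18193 genes so measured. Of these, 28 passed a filter on dim probe sets and were tested among 12216 genes in all.

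RNA came from whole epididymides of wild-type male CD-1 mice, taken by excision at gestational days 12, 14, 16 and 18 (gd12 to gd18, Theiler stages 20, 22, 24 and 26) and postnatal day 2 (pnd2, Theiler stage 27). The labels name no treatment. Each stage had 3 arrays, and the study asked how expression changes from one day sampled to the next. The labels list the gd12 and gd14 arrays as pools of 3 and the later ones as not pooled, while the series text describes every sample as the 2 epididymides of 1 animal, each from another dam. Where the labels are right, stage and pooling cannot be told apart in comparisons of gd12 or gd14 with a later stage. A further array held a pool of whole newborns (postnatal day 0.5, 4 males and 4 females, strain not given in the labels used here) and belongs to no stage. RNA was amplified in a two-cycle protocol, labelled with biotin and hybridised to a one-colour Affymetrix array. In whole organs, fewer cells of one type and less RNA per cell cannot be told apart.

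Glycolysis splits glucose into pyruvate in the cytosol and yields ATP without oxygen, and lactate dehydrogenase then turns pyruvate into lactate. When oxygen is scarce, the prolyl hydroxylases that mark the alpha subunit of hypoxia-inducible factor (HIF) for destruction lose their substrate, and HIF accumulates and raises transcription of glucose transporters, glycolytic enzymes, vascular signals and genes that spare mitochondria. Many of these genes also respond to growth signals and to other transcription factors, and their mRNA does not by itself report oxygen.

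The deposited signals were scaled so that the trimmed mean of each array is 500, and the median signal of 14 epididymis arrays lay between 110.3 and 133. The remaining one, pnd2 replicate 3, stood apart, with a median of 81.24. The ratio of 3' to 5' control probe sets, which grows as RNA or its amplified copies get shorter, was 63.16 there for Gapdh and 80.73 for Actb. On the other 14 arrays it was 4.333 to 7.18 and 2.404 to 4.141. Results are therefore given with all 15 arrays and again with the 14 arrays that remain without pnd2 replicate 3. Among those 14, pnd2 replicates 1 and 2 had the 2 highest Gapdh ratios, 7.18 and 6.811, against 5.359 to 6.502 at gd18. Their Actb ratios were 4.02 and 3.16, against 2.726 to 2.905 at gd18. The part of RNA length in the differences between gd18 and pnd2 was not tested. On pnd2 replicate 3, 10 of the 28 tested members were at least 2-fold below the mean of the other 2 pnd2 arrays and 1 was at least 2-fold above it. The same was true of 23.7% and 12.4% of all genes tested.

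The members were divided by role into 12 glycolytic enzymes (9 tested), 4 genes of glucose entry and glycolysis control (all tested) and 16 other oxygen-regulated genes (15 tested). Eno1 and Gpi1, which encode an enolase and glucose phosphate isomerase, are named only, since the probe annotation used here does not list them. Gapdh, encoding glyceraldehyde phosphate dehydrogenase, had only array control probe sets or probe sets shared with other genes, so it was not tested. Its 3' control probe set read 20860 to 27220 at gd12, 18910 to 23330 at gd18, and 16220, 17760 and 3285 at pnd2. Car9, a carbonic anhydrase of the cell surface and a known HIF target, stayed between 21.8 and 142 on the 15 arrays and was at or above the array median on 1 of them. It therefore did not enter the test. Of the 28 tested members, each read by its brightest probe set, 26 were at or above the array median on all 15 arrays. The other 2, Pfkfb3 and Ankrd37, were so on 14. The share of all tested genes at that mark was not counted.

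**Figure D1:**
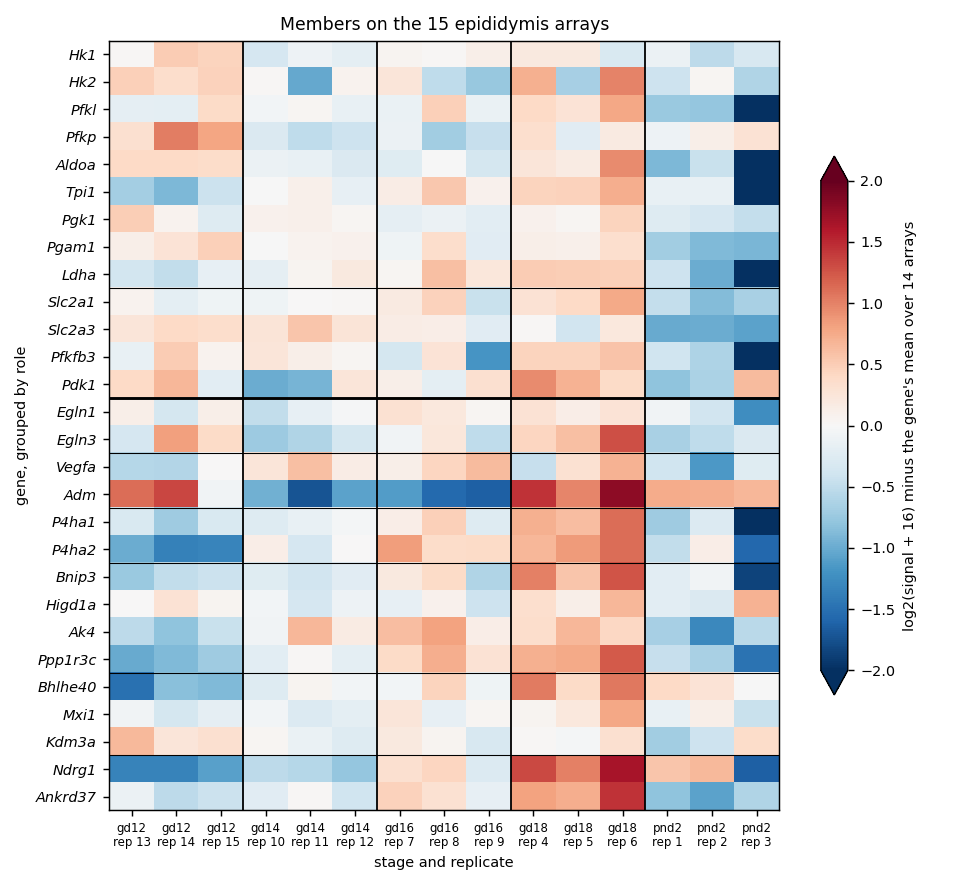
Colour shows log2(signal + 16) of each of the 28 tested members (rows, grouped by role; the thick line separates glycolysis from the other oxygen-regulated genes) on each of the 15 epididymis arrays (columns, 3 per stage), minus that gene's mean over the 14 arrays without pnd2 replicate 3. Most rows are reddest at gd18 and blue at pnd2, and several oxygen-regulated genes are also blue at gd12.

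Over development, most members were highest just before birth. Without pnd2 replicate 3, 20 of the 28 members had their highest stage mean at gd18, compared with 14.5% of all genes tested. These were 5 of 9 glycolytic enzymes (Pfkl, Aldoa, Tpi1, Pgk1 and Ldha), 3 of 4 entry and control genes (Slc2a1, Pfkfb3 and Pdk1) and 12 of 15 oxygen-regulated genes. No member was highest at pnd2, where 23.6% of all genes were. At the other end, 18 members had their lowest mean at pnd2 and 7 at gd12, namely Tpi1, P4ha2, Bnip3, Ppp1r3c, Bhlhe40, Mxi1 and Ndrg1. In 11 members the mean was higher at each later prenatal stage. The shares of all genes lowest at each stage, or higher at each later prenatal stage, were not counted, so these counts stand without a comparison.

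At gd12 the medians of enzymes and oxygen-regulated genes lay on opposite sides of 0, a contrast that was not tested. There the median deviation of the 9 enzymes from their own means, on the log2 scale, was 0.11, 0.27 and 0.38 on the 3 arrays, and that of the 15 oxygen-regulated genes was -0.34, -0.52 and -0.31. At gd18 both groups were above their means: the enzymes by 0.34, 0.17 and 0.48, and the oxygen-regulated genes by 0.66, 0.60 and 1.11. At pnd2 the enzymes stood at -0.41, -0.44 and -0.91 and the oxygen-regulated genes at -0.40, -0.29 and -0.54. The median over all genes stayed between -0.04 and 0.04 on the 14 arrays and was -0.13 on pnd2 replicate 3.

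**Figure D2:**
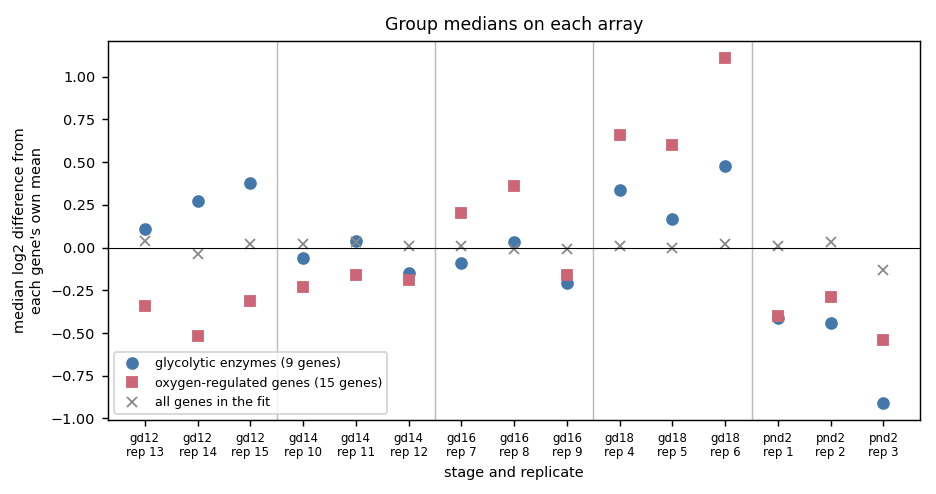
Median log2 difference from each gene's own mean (over the 14 arrays without pnd2 replicate 3) on each of the 15 arrays, for the 9 tested glycolytic enzymes (circles), the 15 oxygen-regulated genes (squares) and all 12216 genes tested (crosses). The enzymes start above 0 at gd12 and the oxygen-regulated genes below it, both are above 0 at gd18, and both are below it at pnd2.

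HIF binds the core ACGTG or GCGTG, so these letters were searched on both strands in RefSeq promoter windows of build GRCm38.p6, from 250 bases before to 50 bases after each gene's start. The E box CACGTG, which MYC and clock factors read, contains ACGTG on both strands and so counts as 1 match here. Windows existed for 29 of the 32 members; Slc2a3, Bhlhe40 and Ndrg1 had none in the table used. At least 1 match lay in 36 of 45 member windows (80%), compared with 43.8% of all 32851 windows, and 2 or more lay in 60% against 17.3%. By gene, 27 of 29 members had a match in some window, against 46.7% of all genes, and 14 of the 14 oxygen-regulated members with a window did. Gpi1 and Tpi1 had none. Member windows were also richer in G and C, with a median of 65% against 52.7%, and 71.7% of the 6011 windows at or above that median held a match. The part of base composition in the difference was not tested further, and a match is not a binding site.

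The 250 bases before the start are shown for 7 members of different roles whose signal fell between gd18 and pnd2 (limma, with all 15 arrays for 6 of them and without pnd2 replicate 3 for Bnip3), so that the arrangement of the cores can be compared. Each runs 5' to 3' along the gene's strand, and capitals mark ACGTG or GCGTG on either strand.
Ldha, chr7:46845554-46845803, plus strand: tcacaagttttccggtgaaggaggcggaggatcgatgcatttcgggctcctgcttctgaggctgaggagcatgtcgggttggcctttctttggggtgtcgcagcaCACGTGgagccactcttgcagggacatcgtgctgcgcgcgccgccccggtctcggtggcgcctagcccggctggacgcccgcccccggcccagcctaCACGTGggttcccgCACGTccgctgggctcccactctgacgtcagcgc
Pgam1, chr19:41911621-41911870, plus strand: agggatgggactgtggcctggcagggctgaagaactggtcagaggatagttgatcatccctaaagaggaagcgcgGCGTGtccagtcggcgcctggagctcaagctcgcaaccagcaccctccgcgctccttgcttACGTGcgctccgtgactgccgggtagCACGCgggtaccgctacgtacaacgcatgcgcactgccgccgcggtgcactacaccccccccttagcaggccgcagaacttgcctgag
Slc2a1, chr4:119108495-119108744, plus strand: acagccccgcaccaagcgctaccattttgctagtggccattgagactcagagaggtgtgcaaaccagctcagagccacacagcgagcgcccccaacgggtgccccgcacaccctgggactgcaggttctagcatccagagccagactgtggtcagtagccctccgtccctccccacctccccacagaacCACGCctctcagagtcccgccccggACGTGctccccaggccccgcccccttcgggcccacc
P4ha1, chr10:59323046-59323295, plus strand: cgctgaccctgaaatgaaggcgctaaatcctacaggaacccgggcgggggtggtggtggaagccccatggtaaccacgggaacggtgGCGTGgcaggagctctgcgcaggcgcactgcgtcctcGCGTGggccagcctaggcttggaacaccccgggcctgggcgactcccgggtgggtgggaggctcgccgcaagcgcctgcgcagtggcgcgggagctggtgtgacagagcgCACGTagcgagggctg
Bnip3, chr7:138909507-138909756, minus strand: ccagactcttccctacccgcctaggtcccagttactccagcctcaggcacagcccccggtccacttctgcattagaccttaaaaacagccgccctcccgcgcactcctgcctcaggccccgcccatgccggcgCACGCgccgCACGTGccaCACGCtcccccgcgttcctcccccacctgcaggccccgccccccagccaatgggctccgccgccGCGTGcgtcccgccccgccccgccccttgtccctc
Ppp1r3c, chr19:36736605-36736854, minus strand: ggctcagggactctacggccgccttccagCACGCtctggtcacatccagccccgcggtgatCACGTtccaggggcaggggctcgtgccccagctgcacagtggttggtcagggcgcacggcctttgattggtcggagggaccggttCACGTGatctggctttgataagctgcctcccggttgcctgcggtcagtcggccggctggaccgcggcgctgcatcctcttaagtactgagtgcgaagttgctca
Ankrd37, chr8:45999851-46000100, minus strand: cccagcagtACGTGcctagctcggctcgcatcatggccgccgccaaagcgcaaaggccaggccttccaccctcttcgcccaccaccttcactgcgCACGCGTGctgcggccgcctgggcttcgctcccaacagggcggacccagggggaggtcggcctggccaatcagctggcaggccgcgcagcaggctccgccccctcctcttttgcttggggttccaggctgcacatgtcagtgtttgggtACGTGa
Ldha, the last enzyme of the pathway, carries an E box at each of 2 of its 3 sites in this stretch, and Bnip3 and Ppp1r3c carry 1 each. Slc2a1 has 2 sites and Pgam1, P4ha1, Ppp1r3c and Ankrd37 have 3, while Bnip3 has 4.

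Signals are given below in the order of the replicate numbers in the labels (13 to 15 for gd12, 10 to 12 for gd14, 7 to 9 for gd16, 4 to 6 for gd18 and 1 to 3 for pnd2). Signals of different probe sets are not comparable with one another. At the entry to glycolysis, Hk1, the general hexokinase that traps glucose as its phosphate, read 1092, 1538 and 1468 at gd12, 849.8, 1005 and 938 at gd14, 1114, 1100.0 and 1163 at gd16, 1237, 1241 and 872 at gd18 and 996, 747 and 858 at pnd2. Its gd12 arrays were all above those of gd14, and gd18 and pnd2 overlapped. Hk2, the insulin-responsive hexokinase, varied widely within stages, from 724 to 2324 at gd18 and from 759 to 1192 at pnd2. Phosphofructokinase commits the sugar to glycolysis. Its liver-type subunit Pfkl read 2484, 2449 and 3661 at gd12, 2696, 2906 and 2537 at gd14, 2579, 3941 and 2579.8 at gd16, 3728, 3414 and 4829.5 at gd18 and 1672, 1648 and 113 at pnd2. All pnd2 arrays were below all gd18 arrays, with replicate 3 far below the other two. The platelet-type subunit Pfkp read 358, 592 and 497 at gd12, 229, 195 and 209 at gd14, 259, 169 and 201 at gd16, 361, 240.1 and 323 at gd18 and 261, 309 and 350.3 at pnd2. It was highest at gd12, all gd14 arrays lay below all gd12 arrays, and gd18 overlapped pnd2.

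In the middle of the pathway, Aldoa, the aldolase that splits fructose bisphosphate, read 8686, 8723 and 8573 at gd12, 6098, 5946 and 5399 at gd14, 5557, 6548 and 5151 at gd16, 7790.3, 7409 and 12743 at gd18 and 3528, 4874 and 1072 at pnd2. Its 3 gd12 arrays lay close together, the gd14 arrays were all lower, and gd18 was all above both gd16 and pnd2. Tpi1, which interconverts the triose phosphates, read 7195, 6172 and 8570.4 at gd12, 11504, 12388 and 10315 at gd14, 12754, 16771 and 12261 at gd16, 15746, 15977 and 19064 at gd18 and 10424, 10394 and 2326 at pnd2. It was lowest at gd12 among the prenatal stages, and the first 2 pnd2 arrays lay between gd12 and gd18. Pgk1, phosphoglycerate kinase and the first ATP-yielding step, varied widely within gd12, from 21434 to 36117, and read 26229 to 35068 at gd18 and 18497 to 21343 at pnd2.

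At the end of the pathway, the phosphoglycerate mutase Pgam1 read 6460.0, 7223 and 8282 at gd12, 5959.9, 6257 and 6311 at gd14, 5622, 7627 and 5078 at gd16, 6506, 6379 and 7533 at gd18 and 3663, 3216 and 3161 at pnd2. All pnd2 arrays were below every prenatal array. Ldha, the lactate dehydrogenase subunit that favours lactate formation, read 10136, 9296 and 11698 at gd12, 11474, 13504 and 14987 at gd14, 13477, 19916 and 15241 at gd16, 18524, 18354 and 18190.1 at gd18 and 9827, 6558 and 3265 at pnd2. Its gd18 arrays differed little from one another, and the pnd2 arrays were spread widely but were all below them.

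Glucose enters cells through Slc2a1 (GLUT1) and Slc2a3 (GLUT3). Slc2a1 read 2194, 1819.5 and 1962 at gd12, 1956, 2094 and 2111 at gd14, 2355, 2884 and 1522 at gd16, 2541, 2741 and 3536 at gd18 and 1495, 1137 and 1322 at pnd2. Slc2a3 read 1710.3, 1898 and 1846 at gd12, 1729, 2127 and 1732 at gd14, 1597, 1587 and 1225 at gd16, 1471, 1098 and 1661 at gd18 and 711, 717 and 677 at pnd2. For both transporters the 3 pnd2 arrays lay below all 12 prenatal arrays, and pnd2 replicate 3 lay close to the other 2 pnd2 arrays. Pfkfb3 makes the fructose bisphosphate isomer that stimulates phosphofructokinase, and it read 306, 491 and 359 at gd12, 407, 372 and 351 at gd14, 265, 416 and 141 at gd16, 470.2, 469 and 516 at gd18 and 256, 218 and 59.9 at pnd2. Pdk1, a kinase that switches off pyruvate dehydrogenase and so keeps pyruvate out of mitochondria, read 1908, 2294 and 1235 at gd12, 716, 745 and 1698 at gd14, 1565, 1256 and 1809.9 at gd16, 2778, 2351 and 1877 at gd18 and 821, 921 and 2236 at pnd2. Here pnd2 replicate 3 was at the gd18 level while the other 2 pnd2 arrays were below all gd18 arrays, so the stage mean at pnd2 depends on that array.

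The oxygen sensors of the group are Egln1 and Egln3, prolyl hydroxylases that mark HIF alpha. Egln1 read 2052 to 2843 at gd12, 2860.3 to 3200.2 at gd18 and 1097 to 2499 at pnd2. Egln3, itself a well-known HIF target, read 304, 701 and 510.0 at gd12, 230.3, 250.3 and 301 at gd14, 372, 456 and 269.8 at gd16, 533, 600.4 and 972 at gd18 and 244, 269 and 316 at pnd2. It was all higher at gd18 than at gd16 and all lower at pnd2 than at gd18.

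The 2 secreted peptides of the vasculature followed different courses. Vegfa, the main growth factor for endothelial cells, read 422, 419.9 and 639 at gd12, 760.5, 975 and 705 at gd14, 692, 866 and 993 at gd16, 461, 788 and 1045 at gd18 and 478, 279.6 and 535 at pnd2. Its gd14 arrays were all above those of gd12, and gd18 and pnd2 overlapped. Adm, adrenomedullin, a vasodilator peptide, read 2212, 2596 and 969 at gd12, 513, 297 and 476 at gd14, 457, 336 and 315 at gd16, 2788, 2008 and 3538 at gd18 and 1713, 1682 and 1609 at pnd2. It was high at gd12, low at gd14 and gd16 and high again at gd18, with no overlap at either step, and its 3 pnd2 arrays were close together below gd18.

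Collagen chains are hydroxylated by enzymes with the catalytic subunits P4ha1 and P4ha2. P4ha1 read 1245, 939 and 1247 at gd12, 1297, 1389.6 and 1505 at gd14, 1693, 2159 and 1292 at gd16, 2536, 2393 and 3365 at gd18 and 943, 1276 and 287 at pnd2. P4ha2 read 304, 231 and 238 at gd12, 678, 488 and 623 at gd14, 1120.3, 798 and 811 at gd16, 986, 1124 and 1364 at gd18 and 435, 679.7 and 197 at pnd2. Both were all higher at gd18 than at pnd2, and P4ha2 was already all higher at gd14 than at gd12 and at gd16 than at gd14.

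Mitochondria and energy stores are represented by 4 members. Bnip3, which marks mitochondria for autophagy, read 1891, 2239 and 2338 at gd12, 2668, 2436 and 2717 at gd14, 3616, 4153 and 2071 at gd16, 6379.6, 4639.6 and 7574 at gd18 and 2742, 3014 and 863 at pnd2. Its gd18 arrays were all above gd16 and all above pnd2. Ppp1r3c, which targets a phosphatase to glycogen and favours glycogen synthesis, read 1543, 1686 and 1913 at gd12, 2702, 3202 and 2739 at gd14, 4082, 5226 and 3841 at gd16, 5163, 5313 and 7337 at gd18 and 2285, 1989 and 1117 at pnd2. Each step up to gd16 showed no overlap, and all pnd2 arrays lay below all gd18 arrays. Ak4, an adenylate kinase of the mitochondrial matrix, read 356, 289.6 and 379.7 at gd12, 492, 837 and 583 at gd14, 809, 917 and 569 at gd16, 669.6, 830.0 and 698 at gd18 and 324, 204 and 353 at pnd2. Higd1a, a small mitochondrial protein that interacts with the respiratory chain, read 3088, 3757 and 3210.2 at gd12, 2958, 2449.9 and 2868 at gd14, 2755, 3286 and 2296 at gd16, 3907, 3355 and 4915 at gd18 and 2671, 2514 and 4983 at pnd2. On pnd2 replicate 3 Higd1a was about as high as on the highest gd18 array, while the other 2 pnd2 arrays were below all gd18 arrays.

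Of the transcriptional and chromatin genes, Bhlhe40, a clock-linked repressor, read 178, 288 and 279 at gd12, 440.0, 548 and 505 at gd14, 509, 727 and 495 at gd16, 1097, 696 and 1119 at gd18 and 703, 642 and 525 at pnd2. Its gd14 arrays were all above gd12 and its pnd2 arrays also stayed above gd12. Kdm3a, a histone H3 lysine demethylase, read 3485, 2623 and 2784 at gd12, 2289.6, 2018 and 1857 at gd14, 2549, 2304 and 1769 at gd16, 2267, 2171 and 2792 at gd18 and 1373, 1658 and 2869.8 at pnd2. Mxi1, a MAX partner that opposes MYC, ranged from 953 to 1156 at gd12, 1274 to 2099.8 at gd18 and 895 to 1321 at pnd2. Ndrg1, a stress-responsive gene, read 739.8, 736 and 878 at gd12, 1317, 1262 and 1095 at gd14, 2356, 2538 and 1567 at gd16, 4722, 3831 and 5940.0 at gd18 and 2769.9, 2979 and 597 at pnd2. Each prenatal stage lay above the one before it without overlap. On this probe set pnd2 replicate 3 was below all gd12 arrays, while the other 2 pnd2 arrays were between gd16 and gd18. The place of replicate 3 varied with the Ndrg1 probe set. One of similar brightness read 2041 there, above gd12 (527 to 757), and a dim one read 9.63, below gd12 (37.2 to 92.2). Ankrd37, an ankyrin repeat protein and HIF target, read 242, 179.6 and 192 at gd12, 224, 269 and 197 at gd14, 369, 329 and 235 at gd16, 475, 447 and 750.0 at gd18 and 145, 117 and 168 at pnd2. Its gd18 arrays were all above gd16, and all pnd2 arrays lay below all prenatal arrays.

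**Figure D3:**
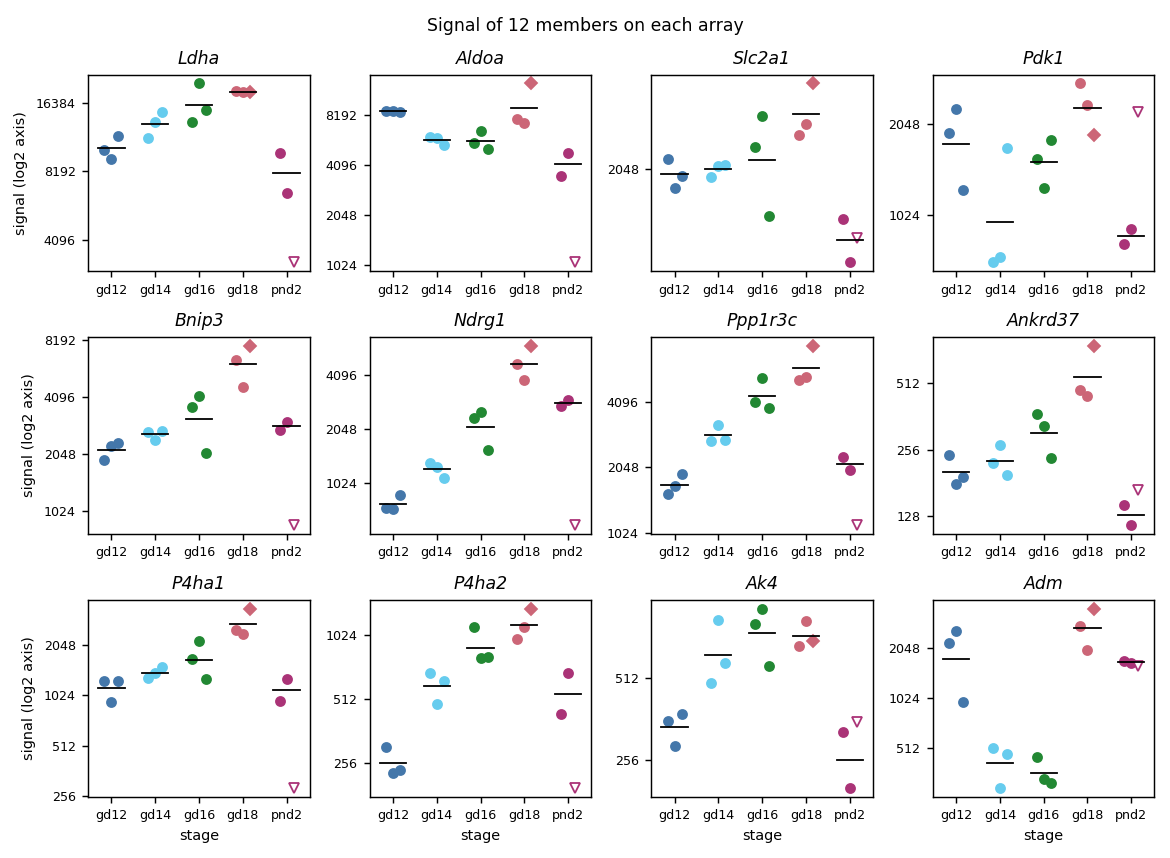
Signal (log2 axis) of 12 members on each of the 15 epididymis arrays by stage; the bar is the stage mean on the log2(signal + 16) scale without pnd2 replicate 3, the open triangle is pnd2 replicate 3 and the diamond is gd18 replicate 6. Bnip3, Ndrg1, Ppp1r3c and P4ha1 climb to gd18 and are lower at pnd2, and Adm is low at gd14 and gd16 only.

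Differences between stages were tested with limma on log2(signal + 16) over all 12216 genes, with p-values adjusted over all of them (Benjamini-Hochberg) and called under 0.05. A log2 difference on this scale understates the change of dim genes.

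From gd12 to gd14 some members rose and others fell. In the 15-array fit 3 members rose, against 6.72% of all genes, and 2 fell, against 5.75%. P4ha2 rose by 1.16 (SE 0.33, adjusted p = 0.0336) on the log2 scale, Bhlhe40 by 0.98 (SE 0.24, adjusted p = 0.0158) and Ak4 by 0.84 (SE 0.26, adjusted p = 0.0442). Adm changed by -2.05 (SE 0.33, adjusted p = 0.000902) and Pfkp by -1.11 (SE 0.24, adjusted p = 0.00654). With pnd2 replicate 3 left out, 6 members rose, against 15.7% of all genes, and 7 fell, against 14.1%. Besides P4ha2, at 1.16 (SE 0.20, adjusted p = 0.000493), Bhlhe40, at 0.98 (SE 0.22, adjusted p = 0.00321), and Ak4, at 0.84 (SE 0.23, adjusted p = 0.0107), those higher were Ppp1r3c, at 0.74 (SE 0.15, adjusted p = 0.00158), Tpi1, at 0.65 (SE 0.14, adjusted p = 0.00208), and Ndrg1, at 0.63 (SE 0.18, adjusted p = 0.0142). The lower ones were Adm, at -2.05 (SE 0.31, adjusted p = 0.00015), Pfkp, at -1.11 (SE 0.22, adjusted p = 0.00144), Pdk1, at -0.85 (SE 0.29, adjusted p = 0.0353), Egln3, at -0.85 (SE 0.28, adjusted p = 0.0328), Aldoa, at -0.58 (SE 0.17, adjusted p = 0.0195), Hk1, at -0.53 (SE 0.17, adjusted p = 0.0246), and Kdm3a, 1.43-fold lower. The median over the 28 members was 0.01 and over all genes 0.03, with 14 members above 0 and 14 below, a split that moves to 11 above and 17 below when arrays are centred on their medians. For the 9 enzymes the median was -0.24 and for the 15 oxygen-regulated genes 0.28. The call count of 5 was 3 without gd12 replicate 14 or 15 and 2 without gd14 replicate 11 or 12.

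From gd14 to gd16 little was called. In the 15-array fit no member passed, against 0.0737% of all genes higher and 0.0573% lower, and 1 member had an unadjusted p under 0.05. In the 14-array fit, where 0.712% of all genes were higher and 0.45% lower, 1 member rose: Ndrg1, by 0.78 (SE 0.18, adjusted p = 0.0468). The unadjusted p was under 0.05 for 6 members there. Ppp1r3c came next, at 0.59 (SE 0.15, adjusted p = 0.0755), and P4ha2 had 0.59 (SE 0.20, adjusted p = 0.203). Array quality weights, or a fit on only the 6 arrays compared, gave 2 calls, both higher, where 201 and 172 of all 12216 genes were called higher.

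From gd16 to gd18 few members were called, and Adm was the only one called with all 15 arrays. The median log2 difference was 0.42 over the 28 members, against 0.01 over all genes, with 24 members above 0. Without gd18 replicate 6 the median over the members was 0.27, against 0.01, with 3 members below 0. With all arrays it was 0.36 for the 9 enzymes and 0.54 for the 15 oxygen-regulated genes. In 11 members all 3 gd18 arrays lay above all 3 gd16 arrays, as in 12.6% of all genes. In the 15-array fit only Adm rose among the members, by 2.84 (SE 0.33, adjusted p = 0.00151), where 0.237% of all genes were called higher and 0.09% lower. In the 14-array fit 3 members rose, against 1.32% of all genes higher and 0.434% lower: Adm by 2.84 (SE 0.31, adjusted p = 0.000181), Ndrg1 by 1.17 (SE 0.18, adjusted p = 0.00319) and Bnip3 by 0.95 (SE 0.21, adjusted p = 0.0347). An unadjusted p under 0.05 was reached by 9 members with 15 arrays and by 16 with 14. The Adm calls rest on a probe set whose name marks it as able to bind related sequences. The other Adm probe set gave -1.04 (adjusted p = 0.253) from gd12 to gd14 and 1.20 (adjusted p = 0.685) from gd16 to gd18.

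From gd18 to pnd2 nearly the whole group was lower. In the 15-array fit 8 members fell, against 0.336% of all genes lower, and none rose, against 0.262% higher. P4ha1 changed by -1.93 (SE 0.39, adjusted p = 0.0435), Ankrd37 by -1.82 (SE 0.25, adjusted p = 0.00881), Ppp1r3c by -1.76 (SE 0.24, adjusted p = 0.00881), Ldha by -1.62 (SE 0.28, adjusted p = 0.0229), Ak4 by -1.30 (SE 0.26, adjusted p = 0.0413) and Slc2a1 by -1.14 (SE 0.21, adjusted p = 0.0302). Pgam1 was 2.03-fold and Slc2a3 1.96-fold lower. Among the 14 arrays 15 members fell, against 1.13% of all genes lower, and none rose, against 0.835% higher. Ankrd37 changed by -1.93 (SE 0.26, adjusted p = 0.00295), Ppp1r3c by -1.45 (SE 0.17, adjusted p = 0.00118), Ak4 by -1.45 (SE 0.25, adjusted p = 0.0106), Pdk1 by -1.39 (SE 0.32, adjusted p = 0.0408), Egln3 by -1.35 (SE 0.31, adjusted p = 0.0444) and P4ha1 by -1.30 (SE 0.21, adjusted p = 0.00797). The folds of the rest were 2.36-fold for Pfkl, 2.28-fold for Ldha, 2.22-fold for Slc2a1, 2.17-fold for Aldoa, 2.11-fold for Bnip3, 2.08-fold for P4ha2, 1.97-fold for Pgam1, 1.93-fold for Slc2a3 and 1.62-fold for Tpi1.

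The fall between gd18 and pnd2 covered all the roles. Of those 15, 5 were glycolytic enzymes, 3 entry and control genes and 7 oxygen-regulated genes. All 28 members had a negative difference in the 14-array fit and 27 in the 15-array fit, the exception being Pfkp, at 0.00. The median was -0.97 with 14 arrays, against 0.01 over all genes, and -1.08 with 15, against -0.05. It was -0.70 for the enzymes and -0.96 for the oxygen-regulated genes with 14 arrays, and -1.02 and -1.26 with 15. In 22 members the first 2 pnd2 arrays both lay below all 3 gd18 arrays, as in 17% of all genes. The smallest differences with 14 arrays were those of Pfkp, at -0.09, Hk1, at -0.35, and Mxi1, at -0.37. None of these passed the test. Tpi1, whose promoter window holds neither core, is among the 15. The 7 members whose promoter stretches are printed above were chosen for their fall, so their place among the 15 was fixed by that choice.

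**Figure D4:**
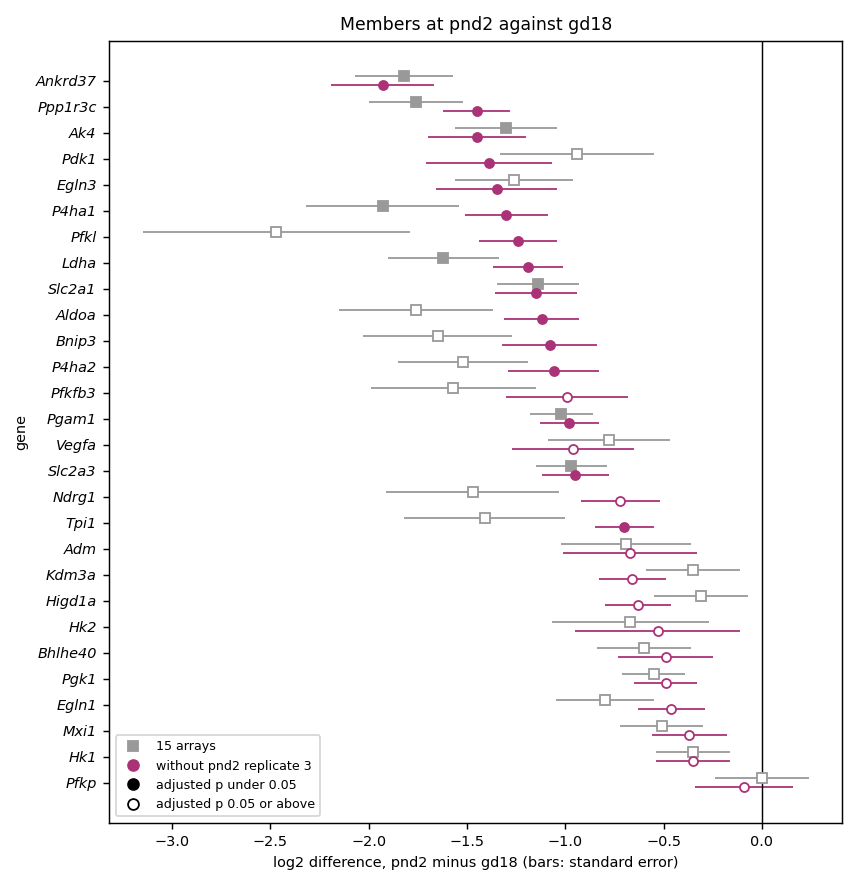
Log2 difference between pnd2 and gd18 for the 28 tested members, with all 15 arrays (grey squares) and without pnd2 replicate 3 (purple circles); bars are standard errors and filled symbols have an adjusted p under 0.05 (limma). All points lie at or left of 0, from -1.93 for Ankrd37 to -0.09 for Pfkp without pnd2 replicate 3, and Pfkl, Aldoa, Tpi1 and Ndrg1 move most between the fits.

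The calls at this step depended on single arrays, and leaving out gd18 replicate 6 removed them all. It was the highest gd18 array for 22 of the 28 members, as for 36.4% of all genes, and the highest of all 15 arrays for 17 members, as for 5.76% of all genes. Without it, and with pnd2 replicate 3 kept, no member was called and only 3 genes of all were (1 higher, 2 lower), while 27 members still had a negative difference and their median was -1.0. When both gd18 replicate 6 and pnd2 replicate 3 were left out, a choice made after these values were seen, 8 members fell: Ankrd37, at -1.70 (adjusted p = 0.0138), Ak4, at -1.48 (adjusted p = 0.0434), Ppp1r3c, at -1.29 (adjusted p = 0.00656), Ldha, at -1.20 (adjusted p = 0.0244), P4ha1, at -1.16 (adjusted p = 0.0412), Pfkl, at -1.10 (adjusted p = 0.0434), Pgam1, at -0.91 (adjusted p = 0.0375), and Aldoa, at -0.87 (adjusted p = 0.0244). In that fit 0.27% of all genes were called lower. The median over the members was then -0.84, against 0.02 over all genes, and all 28 differences were negative. Ak4, Ankrd37, Ldha, P4ha1, Pgam1 and Ppp1r3c were called with all 15 arrays, without pnd2 replicate 3 and without both arrays. None of them was called without gd18 replicate 6 alone. From the 15-array fit, leaving out gd18 replicate 4 gave 2 calls, gd18 replicate 5 or gd14 replicate 12 gave 4, gd14 replicate 10 gave 5, and pnd2 replicate 1 or 3 gave 15, all of them lower. The share of all genes called lower was 0.0491%, 0.106% and 0.164%, 0.188%, and 1.02% and 1.13%, in that order. A fit on the 6 arrays of these 2 stages alone called no member and no other gene.

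Across the whole span from gd12 to pnd2 most calls were of enzymes and glucose entry genes, and downward. In the 15-array fit 1 member rose, against 14.4% of all genes, and 7 fell, against 13.1%. Bhlhe40 rose by 1.29 (SE 0.24, adjusted p = 0.00132). The lower ones were Pfkl, at -1.99 (SE 0.68, adjusted p = 0.0435), Aldoa, at -1.70 (SE 0.39, adjusted p = 0.00501), Slc2a3, at -1.35 (SE 0.18, adjusted p = 7.2e-05), Pfkfb3, at -1.22 (SE 0.42, adjusted p = 0.0455), Pgam1, at -1.12 (SE 0.16, adjusted p = 0.000111), Hk1, at -0.64 (SE 0.19, adjusted p = 0.0223), and Pgk1, 1.37-fold lower. All 7 are enzymes or genes of glucose entry and control. With 14 arrays 4 members rose, against 18.7% of all genes, and 10 fell, against 17%. Ndrg1 rose by 1.86 (SE 0.20, adjusted p = 4.1e-06), Bhlhe40 by 1.41 (SE 0.24, adjusted p = 0.000349), P4ha2 by 1.04 (SE 0.23, adjusted p = 0.00207) and Tpi1 by 0.52 (SE 0.15, adjusted p = 0.0142). Those that fell were Slc2a3, at -1.33 (SE 0.17, adjusted p = 2.6e-05), Pgam1, at -1.08 (SE 0.15, adjusted p = 5.9e-05), Aldoa, at -1.06 (SE 0.19, adjusted p = 0.000518), Pdk1, at -1.0 (SE 0.32, adjusted p = 0.0231), Kdm3a, at -0.96 (SE 0.17, adjusted p = 0.000535), and Egln3, at -0.86 (SE 0.31, adjusted p = 0.0431). Pfkl was 1.69-fold, Pfkp 1.63-fold, Hk1 1.56-fold and Slc2a1 1.52-fold lower.

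The 2 fits shared 6 of these members, out of 8 called with 15 arrays and 14 with 14. The median from gd12 to pnd2 was -0.64 for the 9 enzymes and -0.06 for the 15 oxygen-regulated genes with 14 arrays, against 0.00 over all genes. With 15 arrays it was -0.75 and -0.15, against -0.07. Pgk1 and Pfkfb3 were no longer called with 14 arrays (adjusted p = 0.069 and 0.122). Tpi1 differed between the fits, with -0.20 when pnd2 replicate 3 was kept. The count of 8 was 4 without gd12 replicate 14 and 5 without gd12 replicate 15, any 1 of the 3 gd14 arrays, gd16 replicate 7 or gd18 replicate 4. This comparison shares its pnd2 arrays with that between gd18 and pnd2.

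Over all 5 stages, the moderated F test called 16 members with 15 arrays, where it called 26.4% of all genes, and 24 with 14 arrays, where it called 45.7%. The 16 were 4 enzymes (Pfkp, Aldoa, Pgam1 and Ldha), Slc2a1 and Slc2a3, and 10 oxygen-regulated genes. In the 14-array fit Ndrg1 had the lowest adjusted p of the members (2.4e-07), followed by Ppp1r3c (1.4e-06), Adm (4.9e-06) and P4ha2 (8.0e-06). The 4 members not called in either fit were Hk2, Pgk1, Egln1 and Mxi1. As a description across the 14 arrays, the median Pearson correlation was 0.46 over the 105 pairs of oxygen-regulated genes, 0.31 over the 36 pairs of enzymes and 0.35 over the 135 pairs that join the groups. Over all 15 arrays these values were 0.45, 0.45 and 0.36. These values share the stage means and the arrays.

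Of the 28 tested members, 14 were read by probe sets whose names carry a suffix. Of these, 4 end in _x_at (Aldoa, Tpi1, Pgk1 and Adm), 3 in _s_at (Slc2a3, Ak4 and Ndrg1) and 7 in _a_at. Probes of the first 2 kinds can also bind related sequence, and glycolytic enzymes have processed pseudogenes, so the levels given for these genes are uncertain. A further 29 kept probe sets existed for 16 of the members, and 28 of them had the same sign as the one used between gd18 and pnd2 without pnd2 replicate 3. The exception was a second Mxi1 probe set at 0.13. At earlier steps some disagreed: 2 other Higd1a probe sets gave 1.29 and 0.82 from gd14 to gd16, where the one used gave 0.00, and 1 Pdk1 probe set gave 0.41 from gd12 to gd14, where the one used gave -0.85.

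Genes beyond the 32 were read from 4 lists of the same pathways, 79 of whose 96 genes were tested. Between gd18 and pnd2 their median was -0.16 with 14 arrays and -0.19 with 15, against -0.97 and -1.08 for the members, a difference that was not tested. In the 15-array fit Flt1, a VEGF receptor, fell 3.23-fold (adjusted p = 0.00249) and Angptl4, a secreted inhibitor of lipoprotein lipase, rose 2.88-fold (adjusted p = 0.00881). With 14 arrays 8 fell (10.1%, against 1.13% of all genes) and 2 rose (2.53%, against 0.835%). The lower ones with the largest changes were Flt1 (2.96-fold), Stc2 (2.29-fold), Hif3a (2.13-fold), Plod2 (1.74-fold), Cited2 (1.74-fold) and Dusp1 (1.67-fold). The 2 higher ones were Angptl4 (3.05-fold) and Bpgm (1.86-fold), the red cell enzyme for bisphosphoglycerate. Angptl4 is a known HIF target and went the other way from the members: it read 253, 219 and 226 at gd18 and 629, 872 and 619 at pnd2, with no overlap.

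By list, of 24 other glycolysis and glucose genes 1 rose and 1 fell between gd18 and pnd2 in the 14-array fit. Of 13 genes of pyruvate entry, gluconeogenesis and the pentose phosphate route none was called, and 0 had an unadjusted p under 0.05, against 1 with 15 arrays. Of 15 HIF subunits and regulators 2 fell, and of 27 other oxygen-regulated genes 1 rose and 5 fell. The mRNA of Hif1a, the oxygen-labile subunit, read 6158, 6301 and 6159 at gd18 and 4418, 4309.9 and 8034 at pnd2. Its difference between these stages was -0.51 (SE 0.16, adjusted p = 0.113) with 14 arrays and -0.21 (SE 0.22, adjusted p = 0.58) with 15. From gd12 to pnd2 it fell by 0.84 (SE 0.16, adjusted p = 0.000656) with 14 arrays and was not called with 15, at -0.54 (SE 0.22, adjusted p = 0.0801). Hif3a, whose product can oppose other HIF subunits, read 963, 730.5 and 1498 at gd12, 3446, 3124 and 2846 at gd14, 4841, 3722 and 3296 at gd16, 3903, 3819 and 4643 at gd18 and 1950.3, 1882 and 317 at pnd2. It rose from gd12 to gd14 in both fits, 3.04-fold (adjusted p = 3.1e-05 with 14 arrays and 0.0497 with 15).

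From gd12 to gd14, 7 related genes rose (8.86%, against 6.72% of all genes) and 3 fell (3.8%, against 5.75%) with 15 arrays. With 14, 16 rose (20.3%, against 15.7%) and 14 fell (17.7%, against 14.1%). Lox, which crosslinks collagen, rose 5.45-fold, Eno2, the neuronal enolase, 3.52-fold, Hif3a 3.04-fold, Tgfb3 2.95-fold, Cxcl12 2.61-fold and Hk3 2.4-fold with 14 arrays. Those that fell most were Cxcr4 (3.35-fold), Ldhb (2.83-fold), Ddit4 (2.15-fold), Pdk3 (1.89-fold), Stc2 (1.86-fold) and Eloc (1.82-fold). Ldhb, the subunit that favours pyruvate formation, read 24836, 15657 and 15881 at gd12 and 6503, 6396 and 6508 at gd14, while Ldha did not pass the test at that step (adjusted p = 0.101). From gd14 to gd16 Lox rose 2.3-fold and Igfbp3 fell 2.95-fold, and from gd16 to gd18 Stc2 rose 2.78-fold, Lox rose 1.81-fold and Bpgm fell 1.85-fold, all in the 14-array fit alone. No related gene was called at either of these steps with 15 arrays, where 9 and 6 had an unadjusted p under 0.05.

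From gd12 to pnd2, 14 related genes rose (17.7%, against 18.7% of all genes) and 23 fell (29.1%, against 17%) with 14 arrays. With 15, 7 rose (8.86%, against 14.4%) and 15 fell (19%, against 13.1%). With 14 arrays Lox rose 17.7-fold, Tgfb3 4.59-fold, Eno2 4.4-fold, Cxcl12 3.41-fold, Arnt2 2.54-fold and Pdha1 1.87-fold. Ddit4 fell 3.23-fold, Cxcr4 2.64-fold, Igfbp3 2.36-fold, Ldhb 2.25-fold, Gys1 2.25-fold and Cited2 2.09-fold.

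Markers of other cells also differed between stages. No marker was at 0 on any array, but a signal above 0 does not show that a cell type was present. The adipocyte marker Adipoq, for one, read 1.64 to 20.6 over the 15 arrays. The summed signal of 10 blood vessel endothelium markers was 6678 to 7748 at gd18 and 5649, 5232 and 2347 at pnd2. The low end there is that of pnd2 replicate 3 alone, but all pnd2 arrays lay below the gd18 range. Of the 9 tested, none was called between these stages in either fit (limma; unadjusted p under 0.05 for 3 with 15 arrays and 2 with 14). All 9 had a difference below 0 with 15 arrays, with a median of -0.54, against -0.05 over all genes. That fit keeps pnd2 replicate 3. On pnd2 replicates 1 and 2, Cdh5 read 218 and 196, against 179 to 234 at gd18. Esam read 883 and 943 there, against 797 to 1009, so both overlapped gd18. Kdr was lower than at gd18 on the same 2 arrays, at 2342 and 2017 against 2997 to 3983. For 10 of 12 erythroid markers the sum was 42520 to 65290 at gd12, 27010 to 36900 at gd14, 1044 to 1968 at gd18 and 457 to 589.1 at pnd2. Hbb-y alone read 34996 to 42099 at gd12 and made up most of that sum. Hbb-bh1 and Hba-x fell as well, but Hbb-b2 and Alas2 went the other way up to gd16. Hbb-b2 read 34.4 to 48.7 at gd12 and 480 to 1469 at gd16, and Alas2 519 to 577 and 897 to 4462. The summed signal of 8 smooth muscle markers was 4873 to 6516 at gd12, 48690 to 50320 at gd18 and 56250 to 65300 at pnd2, and that of 13 of 15 Wolffian duct and epididymis markers was 3838 to 9226 at gd12, 27150 to 34150 at gd18 and 38730 to 47320 at pnd2. Between gd18 and pnd2 none of the 8 smooth muscle and 12 duct markers tested was called in either fit. At an unadjusted p under 0.05 there were 2 and 4 with 15 arrays and 3 and 4 with 14, and 3 and 5 had a difference below 0 with 15 arrays. The 13 macrophage and leukocyte markers summed to 2752 to 5986 at gd12 and 10590 to 13360 at gd14, with 9 of 13 called higher at that step with 15 arrays and 12 with 14. For 9 of 10 germ cell markers the sum was 16460 to 25330 at gd12 and 1190 to 1810 at gd14, and for 10 of 12 testis markers it was 4347 to 7569 and 1435 to 2828. Not every testis marker fell: Cyp17a1 read 15.8 to 131 at gd12 and 218 to 949 at gd14. At gd16 the testis sum was 641.9 to 4443, highest on replicate 9, where Cyp17a1 read 2211. The members' median deviation was -0.22 on that array, against 0.12 and 0.28 on replicates 7 and 8. Without that array the members' median log2 difference from gd16 to gd18 was 0.34. On pnd2 replicate 2 the 10 skeletal muscle markers summed to 6904, against 387.4 on the lowest pnd2 array. The part of these cells in the members' values was not tested.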

How the data were processed

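The deposited values are linear signal intensity per probe set, made by the authors with GCOS per the submitters' processing notes and held in 1 column per array. A trimmed mean (2% at each end) of 500 was found on the arrays. Of 45101 probe sets, 64 controls were set aside, 34945 named 1 gene, 932 several and 9160 were not listed. Per gene the probe set brightest on average over the 15 epididymis arrays was kept, and genes at or above the array median on at least 3 of the 15 arrays were tested (12216 genes). Log2(intensity + 16) was fitted over 5 stages with limma 3.58.1 (lmFit, then eBayes with an intensity trend) in R 4.3.3, and p-values were adjusted by Benjamini-Hochberg over all genes. The scripts were tested on simulated data. The newborn pool entered no test. The number of arrays limits the precision. The members and all gene lists were chosen with earlier results of these data known. Members called in any comparison are named, with full statistics for at most 6 in each direction. Figures were drawn with matplotlib 3.10.9. Alternatives were other constants, filters, probe sets, normalizations, thresholds and array subsets.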

Additional observations from a re-analysis of the deposited data

How the results depend on the processing

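Counts of members called (limma) are given against the 15-array values of 16 for any change over the stages, 5 from gd12 to gd14, 0 from gd14 to gd16, 1 from gd16 to gd18, 8 from gd18 to pnd2 and 8 from gd12 to pnd2. With array quality weights they were 26, 12, 2 and 3 for the first 4 and 16 from gd18 to pnd2. At an adjusted p under 0.01 they were 10 over the stages, 2 from gd12 to gd14, 2 from gd18 to pnd2 and 4 from gd12 to pnd2. On only the 6 arrays compared they were 12, 2, 2, 0 and 3 in the order of the comparisons. Calls over all 12216 genes moved too. From gd12 to gd14, 821 rose and 702 fell with 15 arrays, 1850 and 1624 with array weights, and 1548 and 1542 on only the 6 arrays. At an adjusted p under 0.01 they were 436 and 339. From gd12 to pnd2, 1115 rose and 780 fell at that threshold, and 709 and 413 on only the 6 arrays. From gd16 to gd18, 262 rose and 92 fell with array weights, and 183 and 42 on only the 6 arrays. From gd18 to pnd2, 32 rose and 41 fell with 15 arrays, 195 and 218 with array weights, and 3 and 4 at an adjusted p under 0.01. Avoiding probe sets with a suffix gave 3 members from gd12 to gd14 and 0 from gd16 to gd18. Of all 11796 genes in that setting, 740 and 14 rose and 592 and 8 fell. From gd12 to pnd2, no filter gave 5 members and no intensity trend gave 5. Without the filter 1666 of all 18193 genes rose and 1492 fell, and without the trend 1716 of all 12216 rose and 1547 fell. Centring arrays on their medians gave 4 members from gd18 to pnd2, where 33 of all genes rose and 11 fell. It moved the median of all genes at that step from -0.05 to 0.19, with 27 members still below 0. Another setting left out gd16 replicate 9 and gd14 replicate 10, which an earlier reading of these data doubted, together with pnd2 replicate 3. The counts were then 10 from gd12 to gd14, 1 from gd14 to gd16, 2 from gd16 to gd18 and 14 from gd12 to pnd2. Of all genes, 1428, 27, 38 and 2147 rose at these steps and 1345, 6, 10 and 1929 fell. Without both pnd2 replicate 3 and gd18 replicate 6, a setting chosen after seeing the data, the member counts were 14, 2, 2 and 14. Of all genes, 1882, 80, 71 and 2262 then rose and 1713, 57, 25 and 2055 fell. Leaving out 1 array at a time gave 13 to 24 members over the stages, 2 to 13 from gd12 to gd14 and 0 to 1 from gd14 to gd16. It gave 1 to 3 from gd16 to gd18, 0 to 15 from gd18 to pnd2 and 4 to 14 from gd12 to pnd2. From gd12 to gd14, 534 of all genes rose and 460 fell without gd14 replicate 12, and 1917 and 1726 without pnd2 replicate 3. From gd12 to pnd2 these were 1376 and 1121 without gd12 replicate 14, and 2285 and 2073 without pnd2 replicate 3. Calls of the F test over all genes were counted only with all 15 arrays and without pnd2 replicate 3. Of 22 gene changes called with 15 arrays, 4 were called under every setting in which the gene was tested. These were Pfkp from gd12 to gd14, and Bhlhe40, Pgam1 and Slc2a3 from gd12 to pnd2. Slc2a3 was tested in 29 of the 30 settings, since its only probe set without a suffix did not pass the filter. The other 18 changes were lost in at least 1 setting, and 0 reversed. The cause of these shifts was not tested. No paired analysis was possible because the stages share no replicate numbers.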

Other observations

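The array of pooled whole newborns belonged to no stage and was not tested. For 7 of the 29 members with a probe set its signal was above that of all 15 epididymis arrays. These were the enzymes Hk1 (1724), Pfkp (1109), Aldoa (25809), Tpi1 (21763) and Ldha (21514), the oxygen sensor Egln3 (1398) and the repressor Bhlhe40 (1818). It was below all of them for 3 members: the demethylase Kdm3a (652), the ankyrin protein Ankrd37 (87.5) and Car9 (21.2). For the other 19 members it lay within the range of the epididymis arrays. The shares of all genes above, below or within that range were not counted, so these counts stand without a comparison.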
